A study of Mus musculus with 6 samples.

Results

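Chemokines are small secreted or membrane-held proteins that direct the movement of leukocytes by binding to G protein-coupled receptors on their surface. In the artery wall they are known for drawing monocytes, T cells and neutrophils into atherosclerotic plaques, and several are also made in the resting wall, where they hold cells in place or recruit resident macrophages. Ligands are grouped by the spacing of their first cysteines (CC, CXC, CX3C and C), and one receptor often takes several ligands. The genes described here are the 56 whose symbol names a chemokine ligand (Ccl, Cxcl, Cx3cl1 or Xcl1, each with its number) or a chemokine receptor (Ccr, Cxcr, Cx3cr1 or Xcr1), out of 27815 gene identifiers measured. They comprise 38 ligand genes, 2 of them Ccl19 pseudogenes, and 18 receptor genes. Membership rested on the symbol alone and not on any measured value.

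Polyadenylated RNA from the aorta of C57BL/6 mice was sequenced in 6 libraries, 2 from each of 3 groups. Ctrl mice were wild type and labelled 2 months old, and had no surgery or special diet that the labels mention. ApoE mice carried the ApoE -/- genotype throughout the body (no apolipoprotein E, a protein that clears lipoprotein particles from blood) and ate chow until 16 months of age, which gives calcified atherosclerotic plaques. CKD mice were a model of chronic kidney disease with calcification of the medial layer: both poles of the left kidney were cut away at 8 weeks, the right kidney followed 1 week later, and food with 2% phosphate and drinking water with 0.45% NaCl were then given over 4 weeks. The CKD libraries are labelled 16 months, which does not match that schedule, so their age is uncertain, and they had no sham-operated group. ApoE and Ctrl differ in age as well as in genotype, and the effects of age and genotype cannot be told apart. Nothing in the labels ties a library to 1 animal, and the extraction protocol mentions that 4 samples were pooled for miRNA sequencing, so every p-value reflects the spread among these 6 libraries alone, part or all of which may be technical.

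Values are FPKM, a read count divided by exon length and library depth, so levels can be set side by side between genes. By the scale of the values, library depth was 14.4 to 16.7 M reads, at which a single read in 2 kb of exon gives 0.0300 to 0.0347 FPKM. The deleted gene, Apoe, measured 756 and 627 FPKM in Ctrl, 13.2 and 11.4 in ApoE, and 1410 and 1447 in CKD. Smooth muscle markers, which define the aortic media, were present in every library, with a summed level of 7406 to 8265 FPKM in Ctrl, 557 to 638 in ApoE and 3384 to 5892 in CKD. Mitochondrial reads were 3.13% and 4.19% in Ctrl, 9.66% and 10.9% in ApoE, and 9.99% and 5.70% in CKD. Ctrl 2 stood apart from Ctrl 1 in lymphocyte markers: its 8 T cell markers summed to 42.3 FPKM against 4.73, and its 6 B cell markers to 19.0 against 3.79. Fewer cells of a type and less RNA per cell cannot be told apart in these bulk samples.

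The promoters of a few members are shown first, because the ligands fall into families that inflammatory transcription factors are known to switch on. The 250 bases before the annotated start were read from RefSeq promoters of build GRCm38.p6, which matched 39 of the 56 genes. In all, 4 sets of letters were searched on both strands. They were a loose NF-kB motif (3 G, any 5 bases, 2 C), the 3 exact NF-kB decamers, which are a subset of the loose motif, the core of the interferon-stimulated response element (the letters GAAA repeated after any 2 bases) and TTCNNNGAA, the gamma-activated site bound by STAT proteins. The first 10 capitals of Cxcl1, Cxcl2 and, at its second run of capitals, Cxcl10 spell the decamers found there. Capitals below mark an exact decamer, with the overlapping match on the other strand in Cxcl1 and Cxcl2, in the first 3 sequences. In Cxcl10 they also mark the interferon core, upstream of the decamer, and in Cxcl14 they mark the gamma-activated site and then the interferon core. Ccl3, the tested member with the largest rise in ApoE over Ctrl, is shown as a promoter in which none of these letters was found. The windows are chr5:90890995-90891244 (plus strand) for Cxcl1, chr5:90903649-90903898 (plus) for Cxcl2, chr5:92348890-92349139 (minus) for Cxcl10, chr13:56296552-56296801 (minus) for Cxcl14 and chr11:83649379-83649628 (minus) for Ccl3, each written from 5′ to 3′ on its gene's strand.
Cxcl1: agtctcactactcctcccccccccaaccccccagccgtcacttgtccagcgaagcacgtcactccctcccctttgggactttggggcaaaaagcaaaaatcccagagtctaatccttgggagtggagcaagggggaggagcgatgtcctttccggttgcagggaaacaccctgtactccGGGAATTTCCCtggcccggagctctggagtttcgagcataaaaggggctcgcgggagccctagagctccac
Cxcl2: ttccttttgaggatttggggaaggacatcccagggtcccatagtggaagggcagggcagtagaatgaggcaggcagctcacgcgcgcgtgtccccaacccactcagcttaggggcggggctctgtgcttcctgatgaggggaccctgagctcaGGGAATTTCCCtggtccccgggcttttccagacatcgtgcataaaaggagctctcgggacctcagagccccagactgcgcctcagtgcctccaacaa
Cxcl10: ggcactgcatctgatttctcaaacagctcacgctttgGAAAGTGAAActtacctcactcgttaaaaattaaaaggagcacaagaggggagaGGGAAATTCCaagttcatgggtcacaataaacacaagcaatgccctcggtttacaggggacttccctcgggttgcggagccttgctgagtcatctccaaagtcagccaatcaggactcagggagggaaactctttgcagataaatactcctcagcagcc
Cxcl14: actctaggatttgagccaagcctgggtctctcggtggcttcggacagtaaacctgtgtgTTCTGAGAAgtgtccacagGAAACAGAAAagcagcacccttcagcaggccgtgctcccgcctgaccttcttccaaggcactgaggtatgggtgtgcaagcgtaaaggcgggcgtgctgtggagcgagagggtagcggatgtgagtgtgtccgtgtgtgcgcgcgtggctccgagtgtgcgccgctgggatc
Ccl3: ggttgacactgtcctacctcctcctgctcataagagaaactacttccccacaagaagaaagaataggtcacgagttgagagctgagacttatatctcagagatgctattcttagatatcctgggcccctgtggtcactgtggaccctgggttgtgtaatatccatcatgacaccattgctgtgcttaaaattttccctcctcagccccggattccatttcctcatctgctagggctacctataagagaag

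The decamer began 71 bases before the start in Cxcl1, 97 bases before it in Cxcl2 and 159 bases before it in Cxcl10. An exact decamer was held by 5 of the 39 promoters (12.8%: Ccr3, Cxcl1, Cxcl10, Cxcl2 and Cxcl3), and by 0.326% of the promoters of 27025 genes. Cxcl1, Cxcl2 and Cxcl3 are neighbouring genes of related sequence, so their matches are not separate cases. The loose motif was common: 22 of 39 member promoters (56.4%) held it, as did 48.7% of all promoters. The interferon core was found in 3 of 39 (7.69%: Ccl19, Cxcl10 and Cxcl14) and in 3.46% of all promoters, and the gamma-activated site in 3 of 39 (7.69%: Ccl17, Ccr6 and Cxcl14) and in 8.13% of all. These matches describe letters in a window and were not tested.

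Summed over the 38 ligand genes, chemokine RNA stood at 179.7 and 162.2 FPKM in Ctrl, 1338 and 789.9 in ApoE, and 335.2 and 552.5 in CKD. Both ApoE libraries lay above both CKD libraries, which lay above both Ctrl libraries. Ccl6 was the most abundant ligand in each of the 6 libraries, with 31.4% and 33.1% of the ligand sum in Ctrl, 38.7% and 41.7% in ApoE and 46.7% and 51.2% in CKD. The rest of the sum was made up differently in the 3 groups. In Ctrl the next most abundant ligands were Cxcl12 and Ccl9 (13.3% to 14.9% and 12.6% to 13.6%), in CKD Ccl9 came second (18.9% and 19.2%), and in ApoE it was Ccl8 (15.0% and 12.6%, against 3.80% and 4.70% in Ctrl). The number of ligands at 1 FPKM or more was 17 and 16 in Ctrl, 25 and 26 in ApoE, and 17 and 19 in CKD. Receptor RNA summed to 9.92 and 15.1 FPKM in Ctrl, 96.9 and 82.9 in ApoE, and 10.0 and 20.8 in CKD, and here the CKD and Ctrl ranges overlapped. Cxcr4 made up 43.8% and 55.3% of the receptor sum in ApoE, 44.8% and 47.4% in CKD, and 16.1% and 33.0% in Ctrl. The number of receptors at 1 FPKM or more was 9 in each ApoE library, 5 and 4 in Ctrl and 3 and 4 in CKD.

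**Figure D1:**
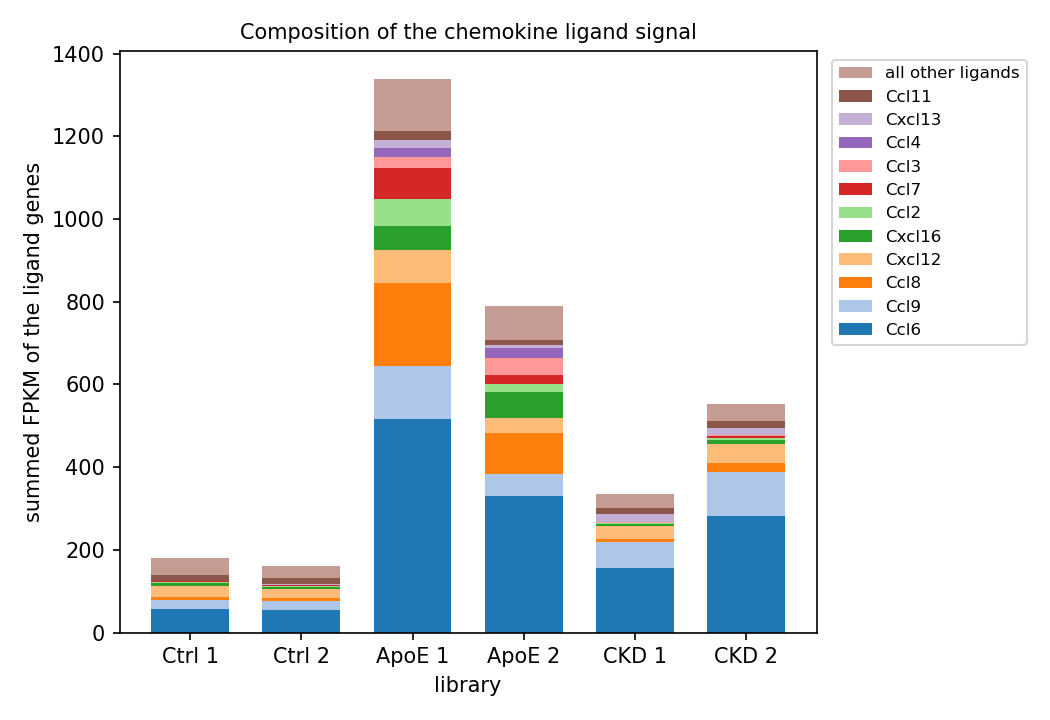
Stacked bars of summed FPKM over the 38 chemokine ligand genes in each of the 6 libraries, with 11 ligands in their own colour and the others together. Ccl6 (dark blue) is the largest part of every bar, and the ApoE bars reach 1338 and 789.9 FPKM against 162.2 to 179.7 in Ctrl.

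Of the 56 genes, 34 reached 1 FPKM in at least 2 libraries and were tested (25 ligand genes, 9 receptors). Only 23 of them would have passed this filter without the ApoE libraries. The other 11 passed because they were high in ApoE, so the counts that follow describe the genes measured and lend no support of their own. A gene was called when the limma p-value, adjusted by Benjamini-Hochberg over all 14074 genes tested, was below 0.05. Fold changes are differences of log2(FPKM + 1) with the limma standard error (SE), a scale that understates the change of genes near or below 1 FPKM. With a pseudocount of 0.1 in place of 1, the called values of Ccl17, Cxcl14, Cxcl2, Cxcl5, Cxcr1, Cxcr3 and Cxcr6 were over 1.5 times larger, as were those of Ccl3 against Ctrl and of Ccr2, Ccr7, Cxcl10 and Cxcl9 against CKD. The exception was Cxcl14 between ApoE and CKD, which moved less.

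In ApoE against Ctrl, 23 of the 34 tested members were higher and 1 was lower, where 44.1% of all tested genes were called (19.8% higher and 24.3% lower). The median log2 difference of the 34 was 1.85, beside -0.07 over all genes. The rises comprised 15 of 25 ligand genes and 8 of 9 receptors. Among the 23 members that pass the filter without ApoE, 15 were higher and 1 was lower. No called value reversed with any 1 library left out, and the number called was then 17 (without ApoE 1) to 24. With no filter on low values, the calls of Ccr1, Ccr2, Cxcl2 and Cxcl5 were lost (adjusted p = 0.0501 to 0.0864).

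In CKD against Ctrl, 4 members were higher (Ccl17, Ccl6, Cxcl13 and Cxcl14) and 1 was lower (Ccl27a), where 5.44% of all tested genes were called (2.23% higher and 3.21% lower). No receptor was called. The median log2 difference of the 34 was 0.14, beside -0.03 over all genes. These 5 calls rest on the full set of libraries: each was lost when Ctrl 1, Ctrl 2, ApoE 1, ApoE 2 or CKD 1 was left out (no member called), while all 5 were called without CKD 2. The adjusted p of the lost calls lay between 0.0517 and 0.248, and no value reversed. No member was called either with no filter on low values or with the ApoE libraries left out of the fit. In the latter fit, 9 of 23 tested members had an unadjusted limma p below 0.05, as did 3880 of all 13200 genes tested there.

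ApoE and CKD were also compared directly, and 22 members were higher in ApoE and 1 was lower (Ccl24). Of all tested genes, 39.7% were called in this comparison (18.5% higher and 21.2% lower). The median of the members was 1.58, beside -0.04 over all genes. Again 8 of 9 receptors were higher. The number of members called fell to 14 without ApoE 1, 15 without ApoE 2 and 16 without CKD 1. With no filter on low values, the calls of Ccl12, Ccr2, Ccr7, Cxcl10, Cxcl5 and Cxcl9 were lost (adjusted p = 0.0581 to 0.0779). The comparisons with Ctrl share the same 2 Ctrl libraries, so their values for each gene are set side by side below and not correlated.

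**Figure D2:**
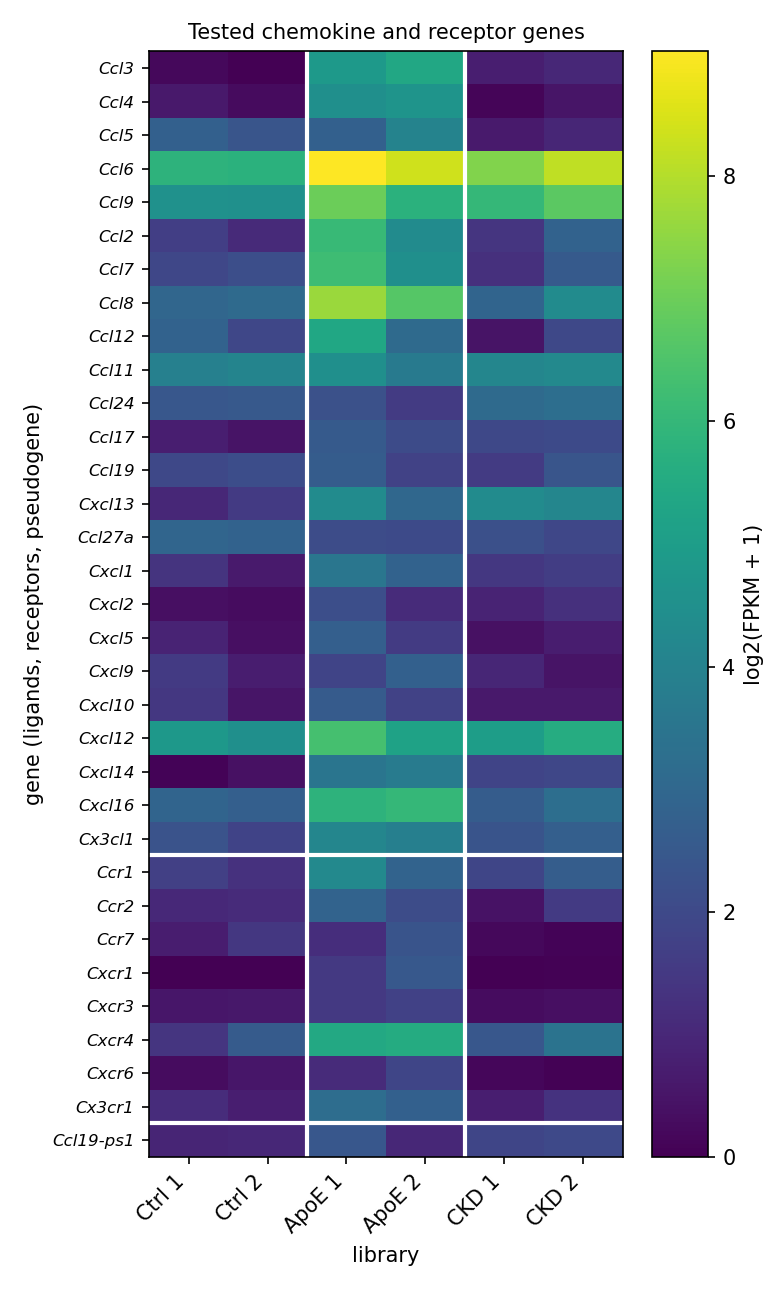
Colour map of log2(FPKM + 1) for tested members (rows: 24 ligands, 8 receptors and the Ccl19-ps1 pseudogene) in the 6 libraries (columns). Yellow is high and dark violet is 0, and the brightest row is Ccl6, which reaches 518 FPKM in ApoE 1.

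The inflammatory CC ligands of macrophages and T cells, several of which bind Ccr1, include Ccl3. That gene had the largest log2 difference of the tested members in ApoE against Ctrl. Ccl3 (ENSMUSG00000000982, chr11:83647844-83649355), a product of activated macrophages, stood at 0.157 and 0 FPKM in Ctrl, 27.6 and 41.4 in ApoE and 0.706 and 0.994 in CKD. Both ApoE libraries were far above the other 4, and both CKD libraries lay above both Ctrl libraries. The log2 difference was 5.02 against Ctrl (SE 0.22, limma adjusted p = 0.000173) and 4.24 against CKD (adjusted p = 0.000542), and CKD against Ctrl was not called (adjusted p = 0.0876). Only 2 reads of Ccl3 were found in Ctrl, against 808 in ApoE, a ratio per depth of 418 with an exact 95% interval of 115 to 3454 that covers counting error only. For CKD against Ctrl the same ratio was 10.4 (2.50 to 91.7, from 19 and 2 reads). Its neighbour Ccl4, another product of activated macrophages and lymphocytes, stood at 0.546 and 0.200 FPKM in Ctrl, 21.7 and 24.6 in ApoE and 0.102 and 0.420 in CKD. Here Ctrl and CKD overlapped and ApoE was higher than both, by 4.14 (SE 0.20, adjusted p = 0.000183) and 4.27 (adjusted p = 0.000506).

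Ccl5, a ligand made by T cells and platelets that binds Ccr1 and Ccr3, had another order. It stood at 5.82 and 4.20 FPKM in Ctrl, 5.88 and 15.4 in ApoE and 0.564 and 0.938 in CKD. ApoE 1 was barely above Ctrl 1, ApoE 2 was the highest library, and both CKD libraries were below all others. ApoE was higher than CKD by 2.61 (SE 0.41, adjusted p = 0.00578), while neither model was called against Ctrl (adjusted p = 0.147 for ApoE and 0.0618 for CKD). The 8 T cell markers ran the same way between the models, with a summed level of 12.5 and 27.6 FPKM in ApoE, 1.38 and 1.92 in CKD, and 4.73 and 42.3 in Ctrl. Of the 7 tested, 1 was higher in ApoE than in CKD, and none was called against Ctrl. Their part in the Ccl5 values was not tested.

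Ccl6 and Ccl9, rodent Ccr1 ligands made by myeloid cells, were already abundant in Ctrl and stood higher in both models. Ccl6 (ENSMUSG00000018927, chr11:83587882-83593087) stood at 56.4 and 53.7 FPKM in Ctrl, 518 and 329 in ApoE and 157 and 283 in CKD, with no overlap between any 2 groups. It was higher than Ctrl by 2.89 in ApoE (SE 0.35, adjusted p = 0.00193) and by 1.92 in CKD (adjusted p = 0.0414), and the models were not separated by the test (adjusted p = 0.0707). Ccl9 stood at 22.6 and 22.0 FPKM in Ctrl, 126 and 53.6 in ApoE and 63.3 and 106 in CKD. Both models lay above Ctrl and overlapped each other. ApoE was called (1.84, SE 0.44, adjusted p = 0.0191) but not without Ctrl 1, Ctrl 2 or ApoE 1 (adjusted p = 0.0579 to 0.0774), and CKD was not called (adjusted p = 0.0652).

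**Figure D3:**
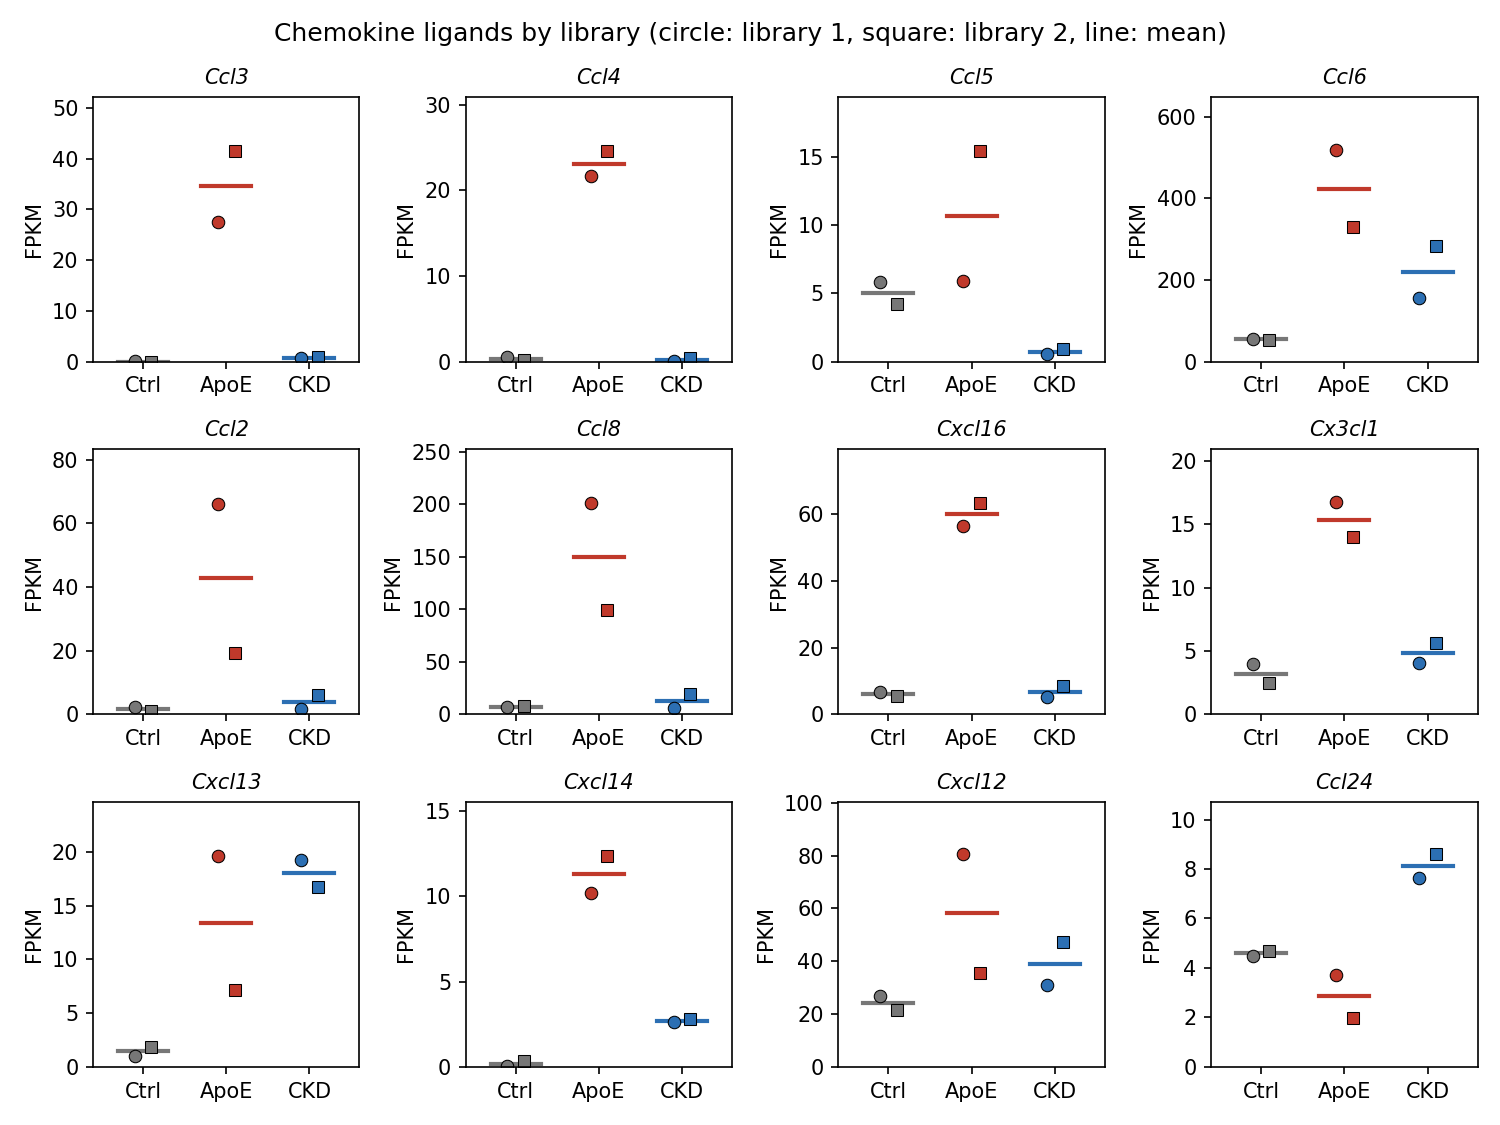
FPKM of 12 ligands in each library, 1 panel per gene with its own linear axis from 0; circles are library 1, squares library 2 and lines the mean of the 2 libraries of a group. Ccl3, Ccl4 and Cxcl16 are high in both ApoE libraries and near Ctrl in CKD, Cxcl13 is high in both models, and Ccl24 is highest in CKD.

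Ccl2, Ccl7 and Ccl12, which draw monocytes from blood through Ccr2, and their neighbour Ccl8 were high in ApoE, and more so in ApoE 1 than in ApoE 2. Ccl2 (ENSMUSG00000035385, chr11:82035571-82037453), the main monocyte chemoattractant, stood at 2.22 and 1.10 FPKM in Ctrl, 66.2 and 19.4 in ApoE and 1.60 and 6.21 in CKD. Both ApoE libraries were above all others, and CKD overlapped Ctrl. The difference was 3.83 against Ctrl (SE 0.69, adjusted p = 0.00773) and 3.09 against CKD (adjusted p = 0.0175), the latter lost without ApoE 1 or CKD 1 (adjusted p = 0.069 to 0.0717). Ccl7 stood at 2.78 and 3.46 FPKM in Ctrl, 74.3 and 21.7 in ApoE and 1.35 and 4.84 in CKD, and was higher in ApoE by 3.33 (SE 0.65, adjusted p = 0.00982) and 3.48 (adjusted p = 0.00976). Ccl8, which in the mouse signals through Ccr8, stood at 6.82 and 7.63 FPKM in Ctrl, 201 and 99.8 in ApoE and 6.49 and 19.6 in CKD. Its rise in ApoE was 4.12 against Ctrl (SE 0.53, adjusted p = 0.00244) and 3.52 against CKD (adjusted p = 0.00517). CKD overlapped Ctrl for both genes, with CKD 2 the higher of the CKD libraries.

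Ccl12 varied widely between libraries of a group, at 6.16 and 2.83 FPKM in Ctrl, 40.7 and 7.64 in ApoE and 0.378 and 2.84 in CKD. ApoE 1 stood 5.32 times above ApoE 2, and ApoE 2 was only slightly above Ctrl 1. ApoE against CKD was called (3.04, SE 0.84, adjusted p = 0.0335), ApoE against Ctrl was not (adjusted p = 0.122). Without ApoE 1 or CKD 1 the call was lost (adjusted p = 0.119 to 0.134), and without ApoE 1 the value was 1.91. Ccl11, an eotaxin that lies between Ccl7 and Ccl12 on chromosome 11, was not called in any comparison and ranged from 11.9 to 21.6 FPKM over the 6 libraries.

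Ccl24, the other eotaxin tested (both recruit eosinophils through Ccr3), was the only tested member called lower in ApoE than in CKD. It stood at 4.50 and 4.69 FPKM in Ctrl, 3.73 and 1.97 in ApoE and 7.62 and 8.61 in CKD. ApoE lay below Ctrl and CKD above it, without overlap. The difference between the models was -1.28 (SE 0.23, adjusted p = 0.00866), and neither model was called against Ctrl (adjusted p = 0.0875 and 0.112). Ccr3 was not tested and stood at 0 and 0.0404 FPKM in Ctrl, 0.710 and 0.596 in ApoE and 0 and 0.0212 in CKD.

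Ccl17, a dendritic cell product that attracts T cells through Ccr4, was higher in both models. It stood at 0.702 and 0.386 FPKM in Ctrl, 4.88 and 3.14 in ApoE and 2.89 and 3.10 in CKD, and no Ctrl library overlapped a model. The difference from Ctrl was 1.68 in ApoE (SE 0.21, adjusted p = 0.00222) and 1.38 in CKD (adjusted p = 0.0339). The 6 dendritic cell markers summed to 6.42 and 5.83 FPKM in Ctrl, 77.9 and 125 in ApoE, and 6.63 and 13.5 in CKD. Most of the ApoE sums came from Itgax alone, at 71.1 and 115 FPKM. Of the 4 tested, 2 were higher in ApoE than in Ctrl (Itgax and Cd209a). Zbtb46 and Clec9a were not called, and Zbtb46 was lower in both ApoE libraries (1.81 and 1.83 FPKM, against 2.56 and 2.50 in Ctrl). None was called in CKD against Ctrl. The part of dendritic cells in the Ccl17 values was not tested.

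Cxcl13, the B cell attractant of lymphoid follicles, which macrophages also make, was high in both models. It stood at 0.993 and 1.90 FPKM in Ctrl, 19.6 and 7.14 in ApoE and 19.3 and 16.7 in CKD, with CKD inside the ApoE range. The difference from Ctrl was 2.43 in ApoE (SE 0.44, adjusted p = 0.00773) and 2.98 in CKD (adjusted p = 0.0318). Its receptor Cxcr5 was not tested, at 0.198 and 0.634 FPKM in Ctrl, 0.169 and 0.343 in ApoE and 0.0406 and 0 in CKD, so the CKD libraries were the lowest. B cell markers did not rise with Cxcl13: they summed to 3.79 and 19.0 FPKM in Ctrl, 5.14 and 11.0 in ApoE, and 1.33 and 0.813 in CKD, and none of the 3 tested was called in any comparison. The 5 mesothelial markers summed to 0.456 and 1.03 FPKM in Ctrl, 8.32 and 5.34 in ApoE, and 53.0 and 42.1 in CKD. Of the 4 tested, 3 were higher in ApoE and 4 in CKD than in Ctrl, and Wt1 was at 0 in both Ctrl libraries. White adipocyte markers also differed, at 143 and 374 FPKM in Ctrl, 1281 and 1394 in ApoE, and 2726 and 878 in CKD, with 6 of 7 higher in ApoE and 1 in CKD. The part of either tissue in the Cxcl13 values was not tested.

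Ccl19, the Ccr7 ligand of lymph nodes, was not called in any comparison and ranged from 1.95 to 5.21 FPKM over the 6 libraries. The pseudogene Ccl19-ps1 was likewise not called, at 0.919 to 4.41 FPKM. Reads of Ccl19 and its near-identical pseudogenes may have been split between them, so all 3 values are uncertain. Ccl27a, a skin-type ligand of Ccr10, was the member that fell in both models. It stood at 6.70 and 6.20 FPKM in Ctrl, 3.27 and 3.06 in ApoE and 3.61 and 2.83 in CKD, with both Ctrl libraries above the other 4. The difference from Ctrl was -0.84 in ApoE (SE 0.14, adjusted p = 0.00586, lost without Ctrl 1 at 0.0516) and -0.83 in CKD (adjusted p = 0.0391). This gene shares exon sequence with Il11ra1 and has near-identical copies on chromosome 4, so its value is uncertain to that extent. Ccr10 was not tested and ranged from 0.642 to 1.02 FPKM.

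The ligands of Cxcr2, which draw neutrophils, were higher in ApoE at modest levels. Cxcl1 stood at 1.57 and 0.564 FPKM in Ctrl, 10.8 and 6.21 in ApoE and 1.77 and 2.10 in CKD. Both ApoE libraries were above all others, by 2.20 against Ctrl (SE 0.32, adjusted p = 0.0037) and 1.65 against CKD (adjusted p = 0.0112, or 0.0541 without ApoE 1). Cxcl2, whose promoter carries the same decamer as that of Cxcl1, stood at 0.291 and 0.224 FPKM in Ctrl, 3.46 and 1.17 in ApoE and 0.883 and 1.37 in CKD. Both models were above Ctrl and overlapped each other. ApoE was called (1.31, SE 0.35, adjusted p = 0.0278), but not without Ctrl 1, Ctrl 2 or ApoE 1 (adjusted p = 0.0739 to 0.1), and without ApoE 1 the value was 0.79.

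Cxcl5, a related ligand, stood at 0.871 and 0.284 FPKM in Ctrl, 5.69 and 1.99 in ApoE and 0.327 and 0.632 in CKD, with ApoE above the rest. It was called against Ctrl (1.53, SE 0.41, adjusted p = 0.028, lost without Ctrl 1 or Ctrl 2 at 0.0566 to 0.121) and against CKD (1.60, adjusted p = 0.0263, lost without CKD 1 or CKD 2 at 0.0643 to 0.0991). Among the receptors, Cxcr1 was listed at 0 and 0 FPKM in Ctrl, 1.85 and 4.65 in ApoE and 0 and 0.0464 in CKD. ApoE was called above both (adjusted p = 0.00545 and 0.00678). Against the single CKD read, the 147 ApoE reads gave a ratio of 139 (exact 95% interval 24.6 to 5543), and no fold against Ctrl is given. Cxcr2 was not tested, at 0.0394 and 0.0217 FPKM in Ctrl, 0.515 and 0.309 in ApoE and 0 and 0.250 in CKD. The 6 neutrophil markers summed to 2.37 and 20.1 FPKM in Ctrl, 63.0 and 23.1 in ApoE, and 3.37 and 20.5 in CKD, with 2 of 5 tested higher in ApoE against either group. Ly6g, the defining marker, was at 0 in 5 of the 6 libraries and at 0.266 FPKM in ApoE 1. The part of neutrophils in these values was not tested.

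The interferon-inducible ligands of Cxcr3, which attract activated T cells, separated the models from each other but not from Ctrl. Cxcl9 stood at 1.89 and 0.657 FPKM in Ctrl, 2.58 and 5.84 in ApoE and 0.964 and 0.390 in CKD. Cxcl10 stood at 1.79 and 0.411 FPKM in Ctrl, 5.02 and 2.45 in ApoE and 0.541 and 0.523 in CKD. For both genes ApoE lay above the other 4 libraries and Ctrl overlapped CKD. ApoE against CKD was 1.58 for Cxcl9 (SE 0.41, adjusted p = 0.0274) and 1.57 for Cxcl10 (SE 0.39, adjusted p = 0.0247), while ApoE against Ctrl missed the threshold (adjusted p = 0.0612 and 0.0517). The call of Cxcl9 was lost without ApoE 2, CKD 1 or CKD 2 (adjusted p = 0.0537 to 0.133) and that of Cxcl10 without ApoE 1, CKD 1 or CKD 2 (adjusted p = 0.08 to 0.119). Cxcl10 shares exon sequence with Art3, so its reads are uncertain to that extent. Their receptor Cxcr3 stood at 0.451 and 0.496 FPKM in Ctrl, 1.85 and 2.33 in ApoE and 0.234 and 0.280 in CKD, with no overlap between groups and CKD the lowest. The order of CKD and Ctrl rests on 6 and 7 reads against 13 and 13. Cxcr3 was higher in ApoE by 1.06 against Ctrl (SE 0.16, adjusted p = 0.00428) and 1.29 against CKD (adjusted p = 0.00289).

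Cxcl12 and Cxcl14, ligands made by fibroblasts, endothelium and other stromal cells, lay above both Ctrl libraries in both models. Only Cxcl14 was called, and these genes were not tested against each other. Cxcl12, which retains stem cells and leukocytes through Cxcr4, was among the 3 most abundant ligands in both Ctrl libraries and was not called in any comparison (adjusted p = 0.07 for ApoE against Ctrl). It ranged from 21.6 to 26.8 FPKM in Ctrl, 35.4 to 80.8 in ApoE and 31.1 to 47.1 in CKD. The log2 difference of Cxcl12 from Ctrl was 1.12 in ApoE and 0.65 in CKD. Cxcl14 (ENSMUSG00000021508, chr13:56288643-56296551), a conserved ligand of epithelium and fat, was the only member called in all 3 comparisons. It stood at 0.0659 and 0.326 FPKM in Ctrl, 10.2 and 12.4 in ApoE and 2.63 and 2.81 in CKD, 3 levels without overlap. The difference was 3.36 for ApoE against Ctrl (SE 0.17, adjusted p = 0.00019), 1.65 for CKD against Ctrl (adjusted p = 0.0201) and 1.72 for ApoE against CKD (adjusted p = 0.00141). The fibroblast markers summed to 1633 and 1431 FPKM in Ctrl, 924 and 627 in ApoE, and 832 and 1260 in CKD, with 3 of 6 lower in ApoE and 1 in CKD. White adipocyte markers, given above beside Cxcl13, summed higher in both models than in Ctrl. Their sums were 143 and 374 FPKM in Ctrl, 1281 and 1394 in ApoE, and 2726 and 878 in CKD. Mesothelial markers also summed higher in both models, with their highest sums in CKD. The part of these tissues in the Cxcl14 values was not tested.

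Cxcl16 and Cx3cl1 are made as membrane proteins that hold passing leukocytes until proteases release them, and Cxcl16 is also a scavenger receptor for oxidised lipoprotein on macrophages. Cxcl16 (ENSMUSG00000018920, chr11:70453983-70459984) stood at 6.58 and 5.60 FPKM in Ctrl, 56.5 and 63.3 in ApoE and 5.10 and 8.57 in CKD. CKD overlapped Ctrl, and both ApoE libraries were well above. The difference was 3.10 against Ctrl (SE 0.23, adjusted p = 0.000429) and 2.99 against CKD (adjusted p = 0.000898). Its exons overlap those of Zmynd15, so its reads are uncertain to that extent. Cx3cl1 (fractalkine) stood at 3.96 and 2.49 FPKM in Ctrl, 16.7 and 14.0 in ApoE and 4.06 and 5.60 in CKD, again with ApoE alone clear of the others. It was higher by 1.97 against Ctrl (SE 0.23, adjusted p = 0.00167) and 1.49 against CKD (adjusted p = 0.00519).

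The receptors of both tethered ligands rose with them in ApoE. Cx3cr1, the fractalkine receptor of monocytes and resident macrophages, stood at 1.19 and 0.704 FPKM in Ctrl, 8.43 and 5.88 in ApoE and 0.676 and 1.52 in CKD, and was higher in ApoE by 2.06 (SE 0.27, adjusted p = 0.00257) and 1.97 (adjusted p = 0.00388). Its exons overlap Gm33858, so its reads are uncertain to that extent. Cxcr6, the Cxcl16 receptor of T cells, rested on few reads outside ApoE (7 and 13 in Ctrl, 3 and 1 in CKD). It stood at 0.218 and 0.445 FPKM in Ctrl, 1.17 and 2.68 in ApoE and 0.105 and 0.0359 in CKD, with CKD the lowest and no overlap. It was higher in ApoE by 1.09 against Ctrl (SE 0.28, adjusted p = 0.0249, lost without Ctrl 1 or Ctrl 2 at 0.0643 to 0.118) and by 1.40 against CKD (adjusted p = 0.0124).

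**Figure D4:**
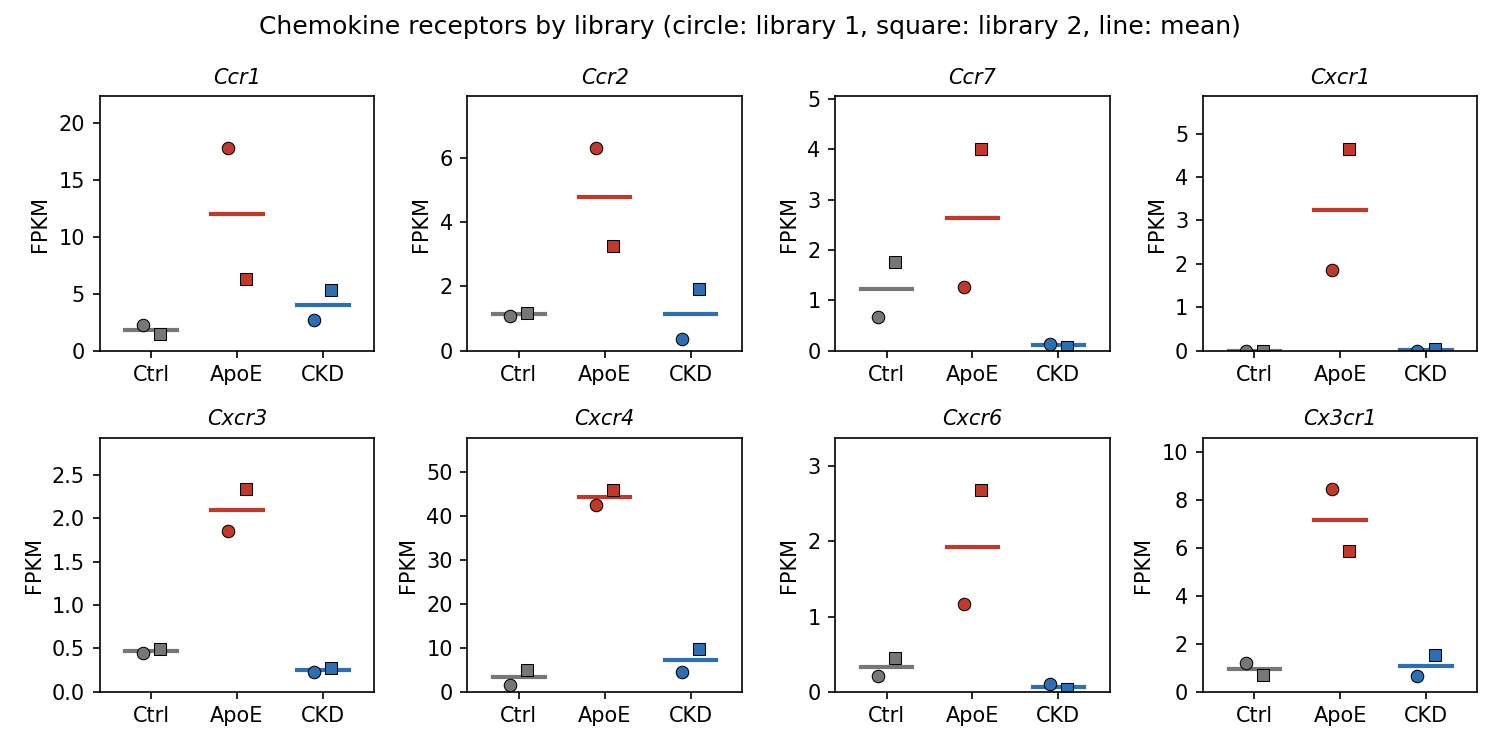
FPKM of 8 tested receptors in each library, 1 panel per gene with its own linear axis from 0; circles are library 1, squares library 2 and lines the mean of the 2 libraries. Cxcr4 reaches 42.4 and 45.8 FPKM in ApoE, and Ccr7, Cxcr3 and Cxcr6 are lower in both CKD libraries than in either Ctrl library.

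Cxcr4 (ENSMUSG00000045382, chr1:128588199-128592293), the Cxcl12 receptor present on most leukocytes, was the most abundant receptor in each library except Ctrl 1. It stood at 1.60 and 4.97 FPKM in Ctrl, 42.4 and 45.8 in ApoE and 4.49 and 9.84 in CKD. The ApoE libraries were close together and above all others, and CKD 1 fell between the Ctrl libraries. The difference was 3.52 against Ctrl (SE 0.47, adjusted p = 0.00265) and 2.55 against CKD (adjusted p = 0.00925, or 0.0621 without ApoE 2). Its ligand Cxcl12 was not called, and the difference between receptor and ligand was not tested.

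Among the CC receptors of myeloid cells, Ccr1 stood at 2.27 and 1.42 FPKM in Ctrl, 17.8 and 6.27 in ApoE and 2.65 and 5.33 in CKD. Both models were above Ctrl, and only ApoE was called (2.05, SE 0.49, adjusted p = 0.0196). That call was lost without Ctrl 1, Ctrl 2 or ApoE 1 (adjusted p = 0.0552 to 0.0858), and without ApoE 1 the value was 1.37. Ccr2, the receptor of inflammatory monocytes, stood at 1.07 and 1.18 FPKM in Ctrl, 6.28 and 3.24 in ApoE and 0.360 and 1.92 in CKD, with Ctrl inside the CKD range. It was higher in ApoE by 1.39 against Ctrl (SE 0.41, adjusted p = 0.0392) and 1.48 against CKD (adjusted p = 0.0348). Both calls were fragile: the first was lost without Ctrl 1, Ctrl 2, ApoE 1 or ApoE 2 (adjusted p = 0.0596 to 0.177) and the second without any 1 library other than CKD 2 (adjusted p = 0.0556 to 0.161), with a value of 0.93 without CKD 1. The 5 monocyte markers, of which Ccr2 is one, summed to 6.36 and 12.1 FPKM in Ctrl, 68.1 and 16.2 in ApoE, and 8.45 and 18.4 in CKD, with 2 of 5 higher in ApoE against either group, and the part of the others in the Ccr2 values was not tested.

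Ccr7, which guides dendritic cells and naive T cells to lymph nodes, stood at 0.668 and 1.77 FPKM in Ctrl, 1.27 and 4.01 in ApoE and 0.137 and 0.0700 in CKD. Here ApoE overlapped Ctrl and CKD was lowest. Only ApoE against CKD was called (1.61, SE 0.42, adjusted p = 0.0284), and it was lost without ApoE 2, CKD 1 or CKD 2 (adjusted p = 0.0837 to 0.112), with a value of 1.04 without ApoE 2. Ccr7 was higher in library 2 than in library 1 of both Ctrl and ApoE, as were the T cell and B cell marker sums.

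**Figure D5:**
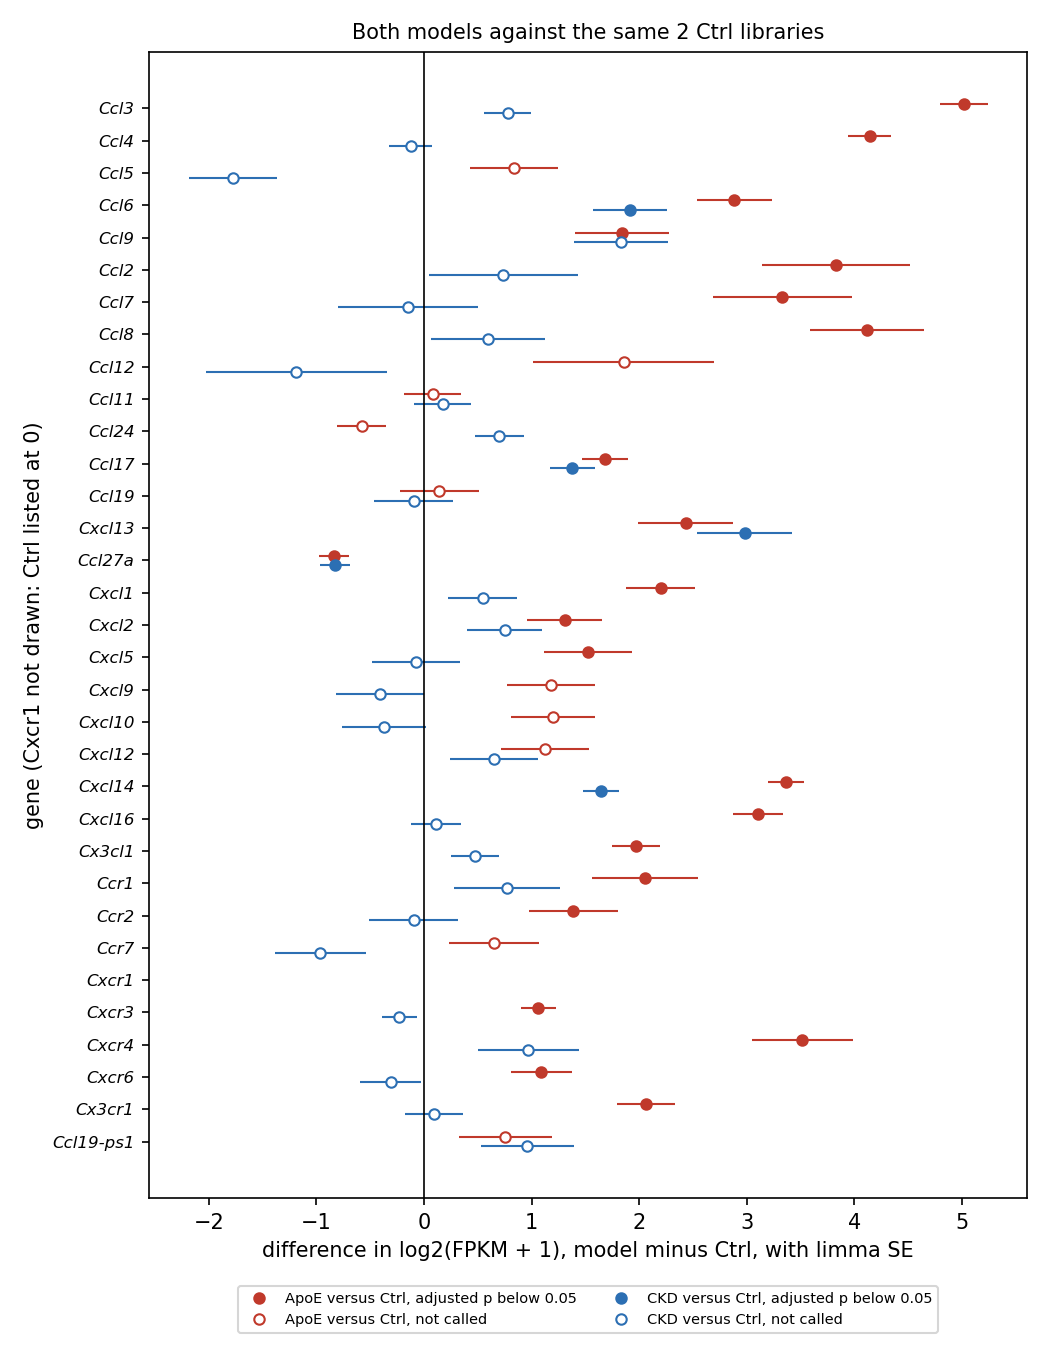
Log2 differences from Ctrl with limma SE for tested members, ApoE in red and CKD in blue, filled where the adjusted p was below 0.05; Cxcr1 is not drawn because Ctrl was listed at 0. ApoE points reach 5.02 for Ccl3, and the filled CKD points are Ccl6, Ccl17, Cxcl13, Cxcl14 and Ccl27a.

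Together the 34 tested genes fell into a few patterns by the 3 tests. The most common, with 16 genes, was higher in ApoE than in both Ctrl and CKD with CKD not called against Ctrl, among them Ccl2, Ccl3, Ccl4, Ccl7, Ccl8, Cxcl1, Cxcl5, Cxcl16, Cx3cl1 and the receptors Ccr2, Cxcr1, Cxcr3, Cxcr4, Cxcr6 and Cx3cr1. In 3 genes (Ccl6, Ccl17 and Cxcl13) both models were called above Ctrl and not against each other. In 5 genes (Ccl5, Ccl12, Ccr7, Cxcl9 and Cxcl10) ApoE was called above CKD and neither was called against Ctrl. No library overlapped between ApoE and Ctrl in 29 members that were higher and 2 that were lower, where 36.4% and 43.0% of all tested genes were so. Between CKD and Ctrl these counts were 14 and 6 (background 29.1% and 35.1%), and between ApoE and CKD 25 and 1 (background 33.0% and 38.0%).

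Within each model, most members leaned to the same library. ApoE 1 was higher than ApoE 2 in 23 of 34 members, 14 of them by more than 2-fold, and the members with the opposite order by more than 2-fold numbered 5. These were Ccl5, Ccr7, Cxcl9, Cxcr1 and Cxcr6. CKD 2 was higher than CKD 1 in 28 of 34, 12 by more than 2-fold. In Ctrl the split was 20 and 13. The same counts were not made over all tested genes, so the lean cannot be called particular to the members. Macrophage markers summed to 7820 FPKM in ApoE 1 and 11580 in ApoE 2, and to 1220 in CKD 1 and 1879 in CKD 2. Of the 10, 4 were higher in ApoE 1 and 6 in ApoE 2, and most of the gap between the ApoE sums came from Lyz2 (lysozyme), at 3885 and 7240 FPKM. In CKD, 9 of the 10 were higher in CKD 2, the library in which most members were also higher.

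Macrophage markers summed higher than in Ctrl in both models, as did the ligand genes. Of the 34 tested members, 24 were called in ApoE against Ctrl and 5 in CKD against Ctrl. The shares of all tested genes called in these comparisons were 44.1% and 5.44%. The 10 markers summed to 632 and 580 FPKM in Ctrl, and 9 were higher in ApoE than in Ctrl, 4 in CKD than in Ctrl and 8 in ApoE than in CKD. None was at 0 in both libraries of any group. Both CKD libraries lay above Ctrl and far below ApoE in this sum. In CKD against Ctrl the median difference of the markers was 1.31, beside 0.14 for the members. The part of these cells in the chemokine values was not tested. NK cell markers were low, at 2.91 and 2.99 FPKM in Ctrl, 1.03 and 2.83 in ApoE, and 0.0490 and 0.468 in CKD, with Eomes and Ncr1 at 0 in both CKD libraries. Mast cell markers summed to 29.3 and 41.2 FPKM in Ctrl, 61.2 and 60.4 in ApoE, and 73.4 and 79.1 in CKD, with 3 of 5 tested higher in each model.

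Markers of the wall and its surroundings were set beside the ligands as well. Smooth muscle markers were called lower in ApoE than in Ctrl in 6 of 6 genes. None was called in CKD, though each was lower in both CKD libraries than in both Ctrl libraries (median log2 difference -0.77). The 7 endothelial markers summed to 351 and 297 FPKM in Ctrl, 275 and 273 in ApoE, and 167 and 276 in CKD (3 higher and 1 lower in ApoE, none called in CKD). The lower endothelial sums of ApoE rest mainly on Pecam1, the largest part of every sum and the marker called lower (log2 difference -0.93). Those called higher were Cdh5 (0.94), Emcn (1.49) and Kdr (1.62). Among the uncalled markers, both ApoE libraries lay above Ctrl for Tie1 and below it for Tek, and Vwf overlapped. Lymphatic endothelial markers summed to 47.1 and 49.1, 48.5 and 18.0, and 95.5 and 149 FPKM for Ctrl, ApoE and CKD. None of the 3 tested was called against Ctrl. Most of each sum came from Lyve1, which was higher in both CKD libraries (89.7 and 141 FPKM) than in Ctrl. Flt4 and the untested Prox1 and Reln were lower in both CKD libraries than in both Ctrl libraries, and Pdpn overlapped Ctrl. Cardiomyocyte markers stood at 6.50 to 6.72 FPKM in Ctrl, 11.1 to 11.6 in ApoE and 26.8 to 32.2 in CKD (2 of 5 higher and 1 lower in ApoE, 3 higher in CKD). Lymph node stroma markers stayed at 0.512 to 6.59 FPKM (1 of 2 tested higher in each model), with Glycam1 and Chst4 at 0 in both Ctrl libraries and Madcam1 at 0 in both CKD libraries.

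The wider pathway was read from lists of genes chosen by known role. Of 26 genes of chemokine receptor signalling in leukocytes (G proteins, phosphoinositide 3-kinases, Rac guanine exchange, Src kinases and integrins), 23 were higher in ApoE than in Ctrl, 2 were higher in CKD than in Ctrl, and 23 were higher in ApoE than in CKD, with none lower. Their median log2 difference was 2.13, 0.18 and 2.12. The shares of all tested genes called higher in the same comparisons were 19.8%, 2.23% and 18.5%. Those with the smallest adjusted p in ApoE were Rgs1, a brake on chemokine receptors (3.59, SE 0.19, adjusted p = 0.000223), the Src kinases Lyn (2.54) and Fgr (3.23), and Itgb2, the shared chain of the leukocyte integrins (4.51). Rgs1 (1.00) and the integrin Itgam (1.47) were the 2 called in CKD. Most of these genes are expressed by leukocytes in general, so the list overlaps in kind with the macrophage markers.

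Of the proteases that shed or trim chemokines, 4 of 8 tested were higher in ApoE than in Ctrl, 1 in CKD and 5 in ApoE against CKD. The shares of all tested genes called higher in these comparisons were 19.8%, 2.23% and 18.5%. In either direction they were 44.1%, 5.44% and 39.7%. Mmp12, the macrophage elastase, rose by 7.25 in ApoE (SE 0.26) and 2.91 in CKD (adjusted p = 0.0145), and Ctss by 5.80 in ApoE. Adam17 and Adam10, the sheddases of Cx3cl1 and Cxcl16, were higher in ApoE than in CKD (1.10 and 1.08), and Adam17 was also higher than in Ctrl (0.76). Among 9 atypical and chemokine-like receptors, 6 were tested, and in ApoE against Ctrl 2 were higher (C5ar1, 1.60, and Ackr1, 0.97) and 1 was lower (Ackr2, a scavenger of CC ligands, -0.56), a share near the 44.1% of all tested genes called in that comparison. None was called in the other comparisons. Ackr3, which takes up Cxcl12, was not called, at 23.9 to 34.1 FPKM in Ctrl, 21.1 to 33.6 in ApoE and 31.4 to 38.6 in CKD.

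Of 15 tested genes of NF-kB and its inducing cytokines, 8 were higher in ApoE than in Ctrl and none was called in CKD, with medians of 0.83 and 0.20. Of all tested genes, 19.8% were higher in ApoE than in Ctrl. The receptor Tnfrsf1b (2.92), the cytokine Il1a (3.01), and the inhibitor Tnfaip3 and the subunit Rel, at 1.75 and 1.09, had the smallest adjusted p. Between ApoE and CKD, 7 were higher and 1 was lower, Nfkbia, at -1.06. Of 9 interferon gamma signalling genes, 4 were higher and 1 lower in ApoE against Ctrl (among them Irf8 3.07, Ifngr2 0.93, Ifngr1 0.41, and Jak2 -0.60), none was called in CKD, and 6 were higher in ApoE than in CKD. Of all tested genes, 44.1% were called in either direction in ApoE against Ctrl, and 18.5% were higher in ApoE than in CKD. Ifng itself did not exceed 0.364 FPKM and was at 0 in both CKD libraries. Of the 3 chemokines whose symbols fall outside the naming pattern, Ppbp (2.49) and Mif (0.60) were higher in ApoE than in Ctrl, and Pf4 was not called.

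The remaining 22 members were not tested. Apart from those given above, those that reached 0.5 FPKM in any library were Ccl22 (0.0517 and 0.284 FPKM in Ctrl, 0.486 and 0.781 in ApoE, 0.0873 and 0.0298 in CKD), Ccl25 (0.419 to 0.683 over all libraries), Ccl19-ps3 (0 and 0 in Ctrl, 0.581 and 1.25 in ApoE, 0.835 and 0.855 in CKD) and Xcl1 (0 and 0 in Ctrl, 0.360 and 0.900 in ApoE, 0 and 0.132 in CKD). Ccr9, a receptor of gut-homing and thymic T cells, reached 0.863 FPKM in Ctrl 2 and at most 0.0293 in the other 5 libraries. Ccl1, Ccl21a, Ccl21b, Ccl26, Ccl28, Ccr4, Ccr6, Ccr8, Cxcl11, Cxcl15, Cxcl17, Cxcl3 and Xcr1 stayed below 0.5 FPKM in every library. Ccl21a and Ccl21b are near-identical copies, so reads could have been split or lost between them. In all, 9 of the 56 members share exon sequence with another annotated gene, and the library kit did not mark strand.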

How the data were processed

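RNA was sequenced from the aorta in 6 libraries, 2 in each of Ctrl, ApoE and CKD, grouped by the sample titles in the labels. The deposited values hold no unit name and were taken as FPKM from the values themselves: multiplied by exon length, 91.9% to 95.8% of low values per library were whole reads within 0.05 read. In 5 of the deposited files identifiers and FPKM values were stacked in 1 column, and no header or label says how the authors counted reads (not given in the sources used here). The submitters' processing notes name Bowtie2 2.2.3, HISAT2 2.1.0, TopHat2 and build GRCm38, with no role for each. Symbols matched 27695 of 27815 identifiers, and exon length 27730. A pseudocount of 1 FPKM was added before the log2, and a filter kept 14074 genes that reached 1 FPKM in 2 or more libraries. One limma model of group means (limma 3.58.1, R 4.3.3, variance trend and robust spread) held all 6 libraries, and each pair of groups was a two-sided contrast with Benjamini-Hochberg adjustment over all genes and a threshold of 0.05. The fit was tested on simulated data. A chi-square over recovered reads compared the 2 libraries of each group, and per degree of freedom it was 17.9 in Ctrl, 39.5 in ApoE and 68.4 in CKD, above counting noise.

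The members and all gene lists were chosen with earlier results of these data known. The results of some genes are not reported here, though they stay in the counts. Other members called in any comparison are named with every library, tested members called in none with their range, and untested members with values where any library reached 0.5 FPKM. From each pathway list up to 4 called genes with the smallest adjusted p are named, and others named there were chosen after their values were seen. Alternatives were pseudocounts of 0.1 and 0.5, no filter, a filter at 5 FPKM, a fit of only the 4 libraries compared, other scalings, no variance trend, a replicate block and each library left out. Some genes listed with the pathway share exons with neighbours and are uncertain to that extent (Mmp12, Adam17, Lyn, Itgam, Il1a and Ackr1 among those named).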

Additional observations from a re-analysis of the deposited data

Results flagged for a closer look

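In 4 of the members described above, every ApoE library lay on one side of both Ctrl libraries and every CKD library on the other, as in 13.4% of all tested genes, so the count is not a result about the members. The contrast of ApoE against CKD tested the difference between the models. Ccl5 differed by 2.61 on the log2(FPKM + 1) scale, Cxcr6 by 1.40 and Cxcr3 by 1.29, with the ApoE libraries above and the CKD libraries below those of Ctrl. The CKD values of Cxcr6 and Cxcr3 rest on 1 to 7 reads a library. Ccl24 went the other way, with ApoE against CKD at -1.28. CKD against Ctrl alone was called in none of these 4, and ApoE against Ctrl was called for Cxcr3 and Cxcr6 but not for Ccl5 (limma adjusted p = 0.147) or Ccl24 (0.0875).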

How the results depend on the processing

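No called value of a member reversed under any alternative. All genes called for ApoE against Ctrl numbered 6208, and 2992 to 7022 with 1 library left out; members numbered 24, and 17 to 24. For CKD against Ctrl 766 genes and 5 members were called; no filter left 1 and 0, the 4 libraries alone 3 and 0, the replicate block 46 and 1 (Cxcl14), and leaving out 1 library 0 to 2366 genes and 0 to 5 members. With 0 genes called (limma, without Ctrl 1 or Ctrl 2), 2022 and 2481 had an unadjusted p below 0.05. For ApoE against CKD 5592 genes and 23 members were called, 2559 to 4941 and 14 to 22 with 1 library left out, and 15 members with the filter at 5 FPKM, which tests fewer genes. The cause of the other shifts was not tested. Calls kept with each library left out in turn numbered 13 of 24, 0 of 5 and 9 of 23. Without ApoE 1 or ApoE 2, 6 of the called members failed the filter on low values and were not tested. Counting only the fits that tested a gene, 17, 0 and 14 calls were kept, with Ccl3, Ccl4, Cxcr1 and Cxcr3 added in both comparisons of ApoE and Cxcr6 in that with CKD.

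Libraries share only a number between groups: their within-group differences correlated at 0.05 (Ctrl and ApoE), -0.23 (Ctrl and CKD) and -0.10 (ApoE and CKD), so the numbers were not taken to pair them. With the number as a block, 24 and 22 members were called in the comparisons of ApoE with Ctrl and with CKD. Depth limits the low members: 1 read in a 2-kb gene is 0.0300 to 0.0347 FPKM.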

Other observations

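Many members lie in chromosomal clusters (neighbours within 500 kb). In ApoE against Ctrl, the tested members of a cluster had the same call in 4 of the 7 clusters with at least 2 tested members, and mixed calls in 3. The 4 include the cluster of Cxcl9 and Cxcl10, in which neither gene was called. With 23 of all 34 tested members called higher, neighbours can have equal calls without any link, so the count is not a result about clusters. On chromosome 11 between 82035571 and 82305690, Ccl2, Ccl7 and Ccl8 were higher in ApoE than in Ctrl, whereas Ccl11 and Ccl12, which lie among them, were not called. Against CKD, Ccl12 was called as well (3.04, limma adjusted p = 0.0335). In the second cluster of chromosome 11, from 83525778 to 83664683, Ccl9, Ccl6, Ccl3 and Ccl4 were higher than in Ctrl, and Ccl5 was called only against CKD. On chromosome 5, Cxcl5, Cxcl1 and Cxcl2 were higher and their neighbours Cxcl3 and Cxcl15 were not tested. In the cluster of Cxcl9, Cxcl10 and Cxcl11 no gene was called against Ctrl. On chromosome 9, the neighbouring receptor genes Cxcr6, Ccr1 and Ccr2 were higher. On chromosome 8, Cx3cl1 and Ccl17 were both higher, and CKD was called above Ctrl only for Ccl17. Neighbours can share sequence and regulation, so they are not independent observations.

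Several receptors of lymphocytes were higher in Ctrl 2 than in Ctrl 1, alongside the T cell and B cell markers: Ccr7 (1.77 against 0.668 FPKM), Ccr9 (0.863 against 0.0293), Cxcr5 (0.634 against 0.198), Ccr6 (0.358 against 0) and Ccr4 (0.256 against 0).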
